A study of Homo sapiens with 6 samples.

Results

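The apolipoprotein L (APOL) genes were examined in the cell line HK-2, which derives from proximal tubule epithelium of the human kidney and was transformed with human papillomavirus 16. The genes were taken by symbol from the counts table, and all 5 (APOL1, APOL2, APOL3, APOL4 and APOL6) were found among 26899 genes. Of these, 4 passed the filter on low counts and were tested with 15299 genes in all, while APOL4 did not pass. APOL5, which belongs to the same family, was not analysed here. The study sequenced polyadenylated RNA of 3 libraries titled WT, with wild type as treatment and shCtrl in the description, and of 3 libraries titled ANXA2 knockdown, called shANXA2. Whether the WT cells carried a control hairpin is not settled by the labels. All 6 libraries came from 1 cell line that was grown in serum and transfected with plasmid by a lipid reagent, and nothing states that replicates were separate cultures, so p-values measure the spread between libraries only.

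APOL proteins insert into membranes. APOL1 is the member that is also secreted, and it circulates on high-density lipoprotein, where it kills trypanosomes by forming an ion-conducting pore. Coding alleles of APOL1 are a known risk for chronic kidney disease. The other members stay inside the cell, on membranes such as the endoplasmic reticulum, Golgi apparatus and mitochondria. Interferons and TLR3 ligands are textbook inducers of APOL transcription in kidney and endothelial cells, with STAT2 and IRF1 among the usual mediators. ANXA2, the target of the knockdown, encodes annexin A2, a calcium-dependent membrane-binding protein.

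The libraries held 24231267 to 34561675 counted reads. The targeted gene was examined first. ANXA2 reached 1539 ± 21.3 CPM (a read count relative to the TMM-scaled library total over tested genes, not corrected for transcript length) labelled knockdown and 1598 ± 119 CPM labelled control (SD, n = 3). The log2 fold change was -0.05, and the adjusted p was 0.848 (edgeR, Benjamini-Hochberg). The ANXA2 transcript was not detectably lower, so groups are named by their labels throughout, and each difference is one between labels. Tubule and epithelial markers were present, with PAX8 at 557 CPM and KRT8 at 1223 CPM on average in the libraries labelled knockdown. The brush border and endocytosis markers LRP2, CUBN, ANPEP and AQP1 stayed below 0.3 CPM on average in each group. SLC34A1 was also low, at 0.444 CPM labelled knockdown and 0.48 CPM labelled control. The brush border gene GGT1 was not, at 248 CPM labelled knockdown and 230 CPM labelled control on average. CDH6 was the only 1 of the 12 tested tubule markers whose groups did not overlap (8.33%, against 15.6% of all tested genes). It had 65.5 ± 3.18 CPM labelled knockdown and 85.1 ± 24.1 CPM labelled control (SD, n = 3; edgeR adjusted p = 0.615).

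The family lies on chromosome 22 (GRCh38, GENCODE release 44, used for position only). APOL6 lies at 35648446 to 35668404 on the plus strand. The other 4 genes analysed form a cluster of 127202 bases that begins 471925 bases further on, with APOL5 (35717872 to 35729483, plus strand) and RBFOX2 between. In that cluster APOL3 (36140329 to 36166177), APOL4 (36189124 to 36204840) and APOL2 (36226209 to 36239954) are on the minus strand and APOL1 (36253071 to 36267530) is on the plus strand. APOL1 and APOL2 are therefore transcribed away from each other, from starts 13117 bases apart, and MYH9 follows 13750 bases after APOL1. None of the 5 genes shared exon bases with another annotated gene on either strand. Reads of the members can largely be told apart. No window of 100 bases in the annotated transcripts of 1 member occurred in another, and at 50 bases the share was at most 0.381% (APOL1).

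To compare levels between members, the deposited FPKM values were used, since they are scaled for transcript length. APOL1 was the most abundant member, at 16.82, 15.24 and 15.48 FPKM in control replicates 1, 2 and 3 and at 17.87, 19.41 and 17.39 FPKM in knockdown replicates 1, 2 and 3. All 3 libraries labelled knockdown lay above all 3 labelled control. This level placed APOL1 above 87.6% of the 26803 genes with an FPKM value. APOL2, an intracellular member found at the endoplasmic reticulum, had 16.19, 13.03 and 14.28 FPKM in the control replicates and 15.52, 16.85 and 13.87 FPKM in the knockdown replicates. Here the groups overlapped, and control replicate 1 exceeded 2 of the libraries labelled knockdown.

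APOL6, an intracellular member that promotes cell death when overproduced, followed at a lower level. Its FPKM was 3.07, 4.17 and 3.11 in the control replicates and 3.11, 2.88 and 3.44 in the knockdown replicates, so that control replicate 2 was the highest of the 6 libraries. APOL3, which acts on Golgi membranes and on bacteria in the cytosol, had 1.62, 1.37 and 2.12 FPKM in the control replicates and 1.53, 1.89 and 1.29 FPKM in the knockdown replicates. The highest and the lowest APOL3 values were control replicate 3 and knockdown replicate 3. APOL4 was close to undetected, with 2, 12 and 0 reads in the control replicates and 1, 3 and 3 reads in the knockdown replicates. Of its 21 reads, 12 came from control replicate 2. The other 5 libraries lay at or below 3 reads, the limit that a count of 0 allows.

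**Figure D1:**
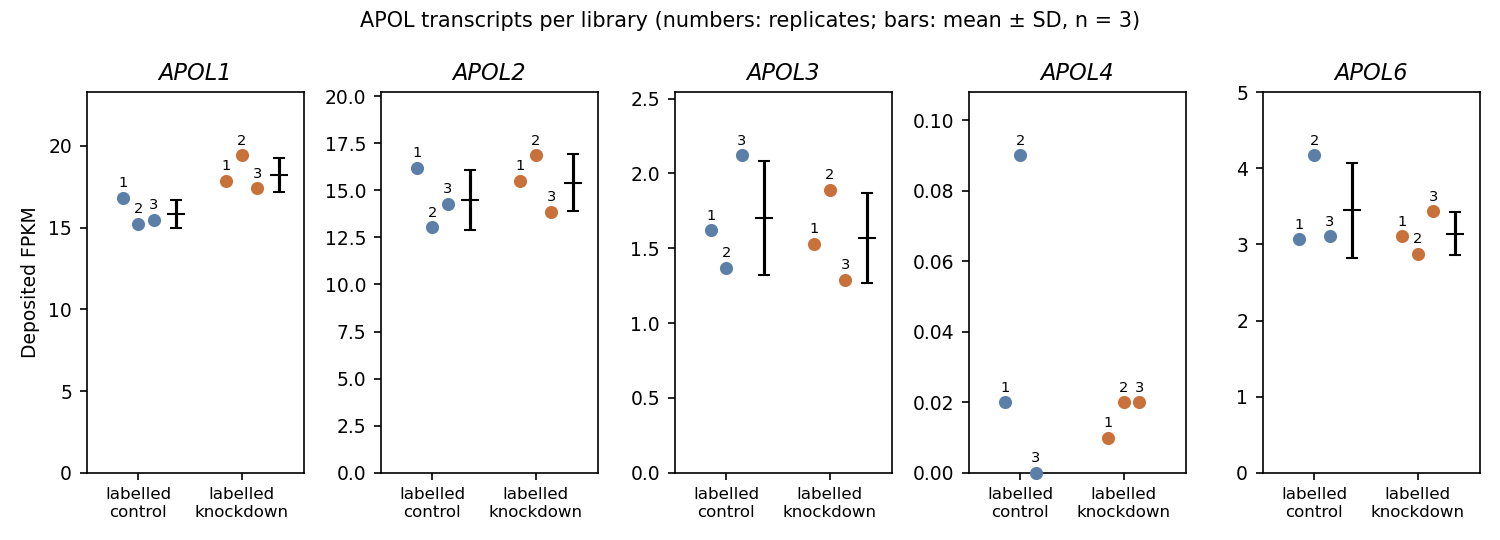
Deposited FPKM (vertical axes, each starting at 0) of the 5 APOL genes in each library, with replicate numbers beside the points and bars for the mean ± SD of 3 libraries, which are left out for APOL4 because 5 of its 6 libraries held at most 3 reads. APOL1 in the libraries labelled knockdown (17.39 to 19.41) lies above the libraries labelled control (15.24 to 16.82), whereas the groups overlap for the other members.

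The order of the levels was the same in every library for the tested members, from APOL1 through APOL2 and APOL6 to APOL3. The nearest neighbours were APOL1 and APOL2, whose FPKM ratio within a library spanned 1.04 to 1.25. Their ranges over the 6 libraries overlapped (15.24 to 19.41 and 13.03 to 16.85 FPKM), so the order held within libraries and not across them. APOL3 stood at 0.329 to 0.682 of the APOL6 level within a library. APOL1 and APOL2 together made up most of the family, with shares of 44.2% to 48.3% and 38.4% to 42.9% of the summed FPKM. APOL6 contributed 7.02% to 12.3%, APOL3 3.58% to 6.06%, and APOL4 at most 0.265%.

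The share of APOL1 differed between the labels without overlap. It was 44.6%, 45.0% and 44.2% in control replicates 1, 2 and 3 and 47.0%, 47.3% and 48.3% in knockdown replicates 1, 2 and 3. The group means were 44.6% ± 0.357 and 47.5% ± 0.688 (SD, n = 3; exact two-sided permutation p = 0.1, the smallest that 3 against 3 libraries allow). The summed FPKM of the family was 35.5 ± 1.97 in the libraries labelled control and 38.4 ± 2.54 in those labelled knockdown (SD, n = 3; exact two-sided permutation p = 0.2). This difference of 2.83 FPKM was 1.49 FPKM without knockdown replicate 2.

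**Figure D2:**
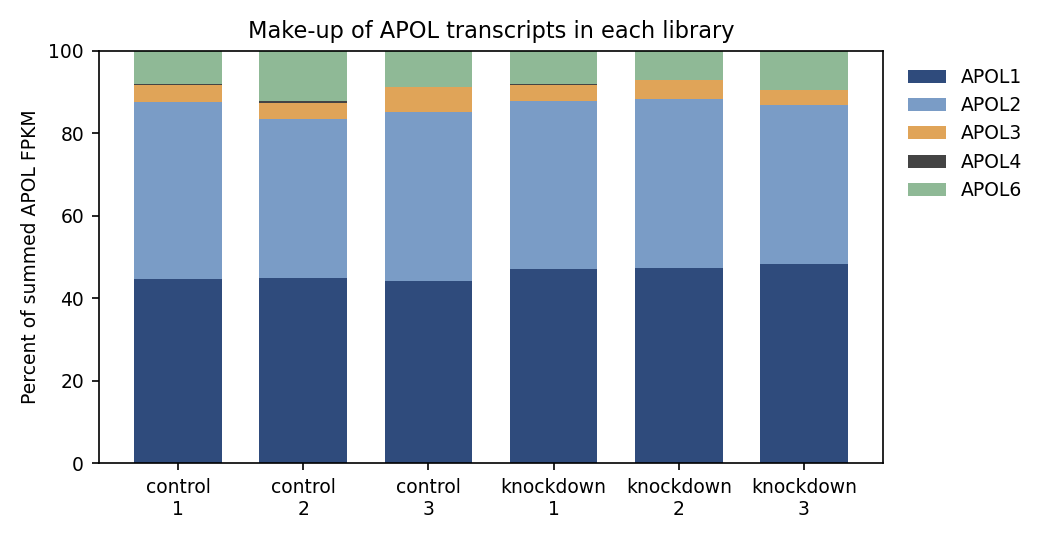
Share of each APOL gene in the summed APOL FPKM of a library (vertical axis, percent), as stacked bars for control replicates 1 to 3 and knockdown replicates 1 to 3. APOL1 takes 44.2% to 45.0% of the control bars and 47.0% to 48.3% of the knockdown bars.

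Ratios between the 4 tested members were then compared, as 6 pairs of log2 FPKM ratios. None differed between the labels beyond the spread. The largest difference was that of APOL1 over APOL6, which was 4.70 ± 0.942 in the libraries labelled control and 5.85 ± 0.847 in those labelled knockdown (SD, n = 3; exact two-sided permutation p = 0.2, adjusted over the 6 pairs 0.6). APOL1 over APOL2 was 1.10 ± 0.0664 and 1.19 ± 0.059 (SD, n = 3; exact two-sided permutation p = 0.3, adjusted over the 6 pairs 0.6).

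Differences between the labels were tested with edgeR on the counts. Of the 4 tested members, 0 passed an adjusted p of 0.05, where 0% of all tested genes were called. At an unadjusted p under 0.05 edgeR likewise gave 0 members, against 8.18% of all tested genes, and neither DESeq2 nor limma called a member. Overlap between the groups was absent for 1 of 4 members (APOL1, higher in the libraries labelled knockdown), against 15.6% of all tested genes in either direction, 7.94% higher and 7.7% lower. With 4 members, this count cannot be set apart from that background. Of the 4 estimates, 2 lay above and 2 below 0, with a median log2 fold change of 0.00068, where the median over all tested genes was -0.0065.

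APOL1 (ENSG00000100342.20) had 1359, 1619 and 1587 reads in the control replicates and 2033, 2134 and 1652 reads in the knockdown replicates. After scaling this was 52.1 ± 3.24 CPM in the libraries labelled control and 60.5 ± 3.79 CPM in those labelled knockdown (SD, n = 3; exact two-sided permutation p = 0.1, the smallest possible). edgeR put the log2 fold change at 0.22 (SE 0.103, unadjusted p = 0.0638, adjusted p = 0.615). The 95% interval of the change was -1.05% to 36.4%. Omission of single libraries gave estimates from 0.17 (knockdown replicate 2 omitted) to 0.27 (control replicate 1 omitted). APOL1 was thus higher in 3 of 3 libraries, by an amount that did not pass the test.

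APOL2 (ENSG00000128335.13) had 1217, 1288 and 1362 reads in the control replicates and 1643, 1724 and 1226 in the knockdown replicates. These gave 44.3 ± 5.27 CPM labelled control and 47.6 ± 4.90 CPM labelled knockdown (SD, n = 3). edgeR put the log2 fold change at 0.10 (SE 0.127, adjusted p = 0.829). The 95% interval ran from -12.0% to 31.1%. APOL2 was highest in knockdown replicate 2 and lowest in control replicate 2, as was APOL1. Without control replicate 2 its estimate was 0.027, and without control replicate 1 it was 0.20.

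APOL6 (ENSG00000221963.5) had 806, 1437 and 1035 reads in the control replicates and 1148, 1027 and 1060 in the knockdown replicates. It reached 36.7 ± 6.25 CPM labelled control and 33.8 ± 2.81 CPM labelled knockdown (SD, n = 3). edgeR put the log2 fold change at -0.12 (SE 0.142, adjusted p = 0.819). Its 95% interval ran from -26.3% to 14.8%. Control replicate 2 decided the sign, since the estimate was 0.03 without that library. APOL6 was highest in control replicate 2 and lowest in knockdown replicate 2, the libraries in which APOL1 was lowest and highest.

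APOL3 (ENSG00000128284.19) was the shallowest of the tested members, with 162, 181 and 269 reads in the control replicates and 216, 257 and 152 in the knockdown replicates. It reached 6.94 ± 1.57 CPM labelled control and 6.46 ± 1.26 CPM labelled knockdown (SD, n = 3). edgeR put the log2 fold change at -0.10 (SE 0.231, adjusted p = 0.913). Its 95% interval was the widest, from -35.1% to 33.7%. The sign rested on 2 libraries, as omission of control replicate 3 gave 0.09 and omission of knockdown replicate 3 gave 0.03. APOL4 (ENSG00000100336.17) was not tested. Its 7 reads labelled knockdown against 14 labelled control amounted to 0.452 of the control level after correction for depth (95% exact interval 0.154 to 1.196, for counting error only). Without control replicate 2 the log2 ratio turned from -1.15 to 1.00, so no difference was detectable at this depth.

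The spread between libraries exceeded counting error for each tested member. For APOL1 the coefficient of variation of CPM was 6.22% in the libraries labelled control and 6.26% in those labelled knockdown, while counting alone would give 2.56% and 2.27%. For APOL2 it was 11.9% and 10.3% against 2.79% and 2.56%. APOL6 varied by 17.0% labelled control and 8.31% labelled knockdown (counting 3.03% and 3.05%), and APOL3 by 22.6% and 19.6% (counting 7.001% and 6.93%).

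**Figure D3:**
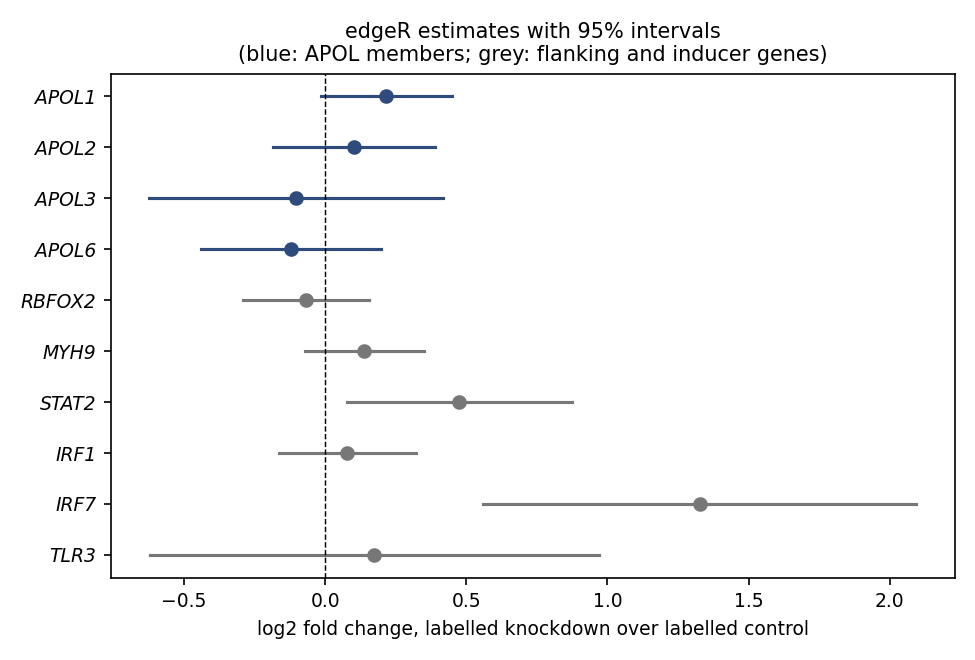
edgeR log2 fold changes of the libraries labelled knockdown over those labelled control (horizontal axis) with 95% intervals, for the 4 tested APOL genes (blue) and for flanking and inducer genes (grey). The intervals of all 4 APOL genes include 0, and their upper ends lie at or below 0.45. The interval of IRF7 begins at 0.56. IRF7 is shown as the non-overlapping inducer gene with the largest estimate, and its edgeR adjusted p was 0.599. The intervals are not adjusted for the number of genes.

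Genes on both sides of the APOL loci were examined for a shift of the whole region. Of 15 listed neighbours 11 were tested, and 0 passed an adjusted p of 0.05. The estimate was above 0 for 10 and below 0 for 1, with a median log2 fold change of 0.14. Over all tested genes, 7495 estimates lay above 0 and 7804 below. At an unadjusted p under 0.05 edgeR gave 2 neighbours, both higher in the libraries labelled knockdown, against 8.18% of all tested genes in either direction. A shift of the region as a whole was not tested. RBFOX2, a splicing factor gene that lies between APOL6 and the cluster, had 71.6 ± 1.24 CPM labelled control and 68.4 ± 5.52 CPM labelled knockdown (SD, n = 3; edgeR adjusted p = 0.858). MYH9, which encodes non-muscle myosin heavy chain IIA and lies next to APOL1, had 1747 ± 210 CPM labelled control and 1923 ± 85.7 CPM labelled knockdown (SD, n = 3; edgeR adjusted p = 0.689). The groups did not overlap for 1 neighbour (9.09%, against 15.6% of all tested genes). This was the endosomal trafficking gene TOM1, with 24.6 ± 1.13 and 31.1 ± 1.204 CPM (SD, n = 3). edgeR put the log2 fold change at 0.34 (adjusted p = 0.599).

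The inducers of APOL transcription were then compared. Of 21 listed receptors, kinases and transcription factors 19 were tested, and 0 passed an adjusted p of 0.05. IRF1, the transcription factor that mediates much of the interferon gamma response, had 70.5 ± 8.11 CPM labelled control and 74.4 ± 0.568 CPM labelled knockdown (SD, n = 3; edgeR adjusted p = 0.846). TLR3, the endosomal receptor for double-stranded RNA, was low at 2.65 ± 1.12 and 3.01 ± 0.732 CPM (SD, n = 3; edgeR adjusted p = 0.901). Overlap between the groups was absent for 2 of these 19 genes (10.5%, against 15.6% of all tested genes). IRF7, itself an interferon-induced factor, had 5.81 ± 2.83 CPM labelled control and 14.5 ± 3.38 CPM labelled knockdown (SD, n = 3). edgeR put the log2 fold change at 1.33 (SE 0.341, adjusted p = 0.599). STAT2 had 16.0 ± 2.39 and 22.3 ± 4.33 CPM (SD, n = 3). edgeR put the log2 fold change at 0.48 (adjusted p = 0.605).

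APOL genes were set beside other interferon-induced genes. Of 28 tested type I interferon targets, 0 passed an adjusted p of 0.05, against 0% of all tested genes. An unadjusted p under 0.05 in edgeR was found for 25, all with higher estimates in the libraries labelled knockdown, against 8.18% of all tested genes in either direction. The groups did not overlap for 22 (78.6%), against 15.6% of all tested genes in either direction and 7.94% higher. The median log2 fold change of the type I targets was 1.22, a fold of 2.34. The 2 non-overlapping genes with the largest estimates were the antiviral genes MX2 and OAS2. MX2 had 0, 1 and 0 reads in the control replicates and 34, 27 and 50 in the knockdown replicates, and OAS2 had 7, 1 and 3 reads against 193, 99 and 274 (edgeR adjusted p = 0.156 and 0.131). These 2 genes entered the test through their reads in the libraries labelled knockdown. Others of the list did not, such as OAS3, with 2663, 2580 and 3322 reads in the control replicates, and BST2, with 3605, 4384 and 4893. The list was chosen with earlier results of these data known, so its counts and median describe it and support no direction. The 15 tested interferon gamma targets had a median log2 fold change of 0.29, with 0 past an adjusted p of 0.05. In edgeR 6 had an unadjusted p under 0.05, against 8.18% of all tested genes. The groups did not overlap for 5 (33.3%, against 15.6% of all tested genes). GBP1 and TAP1, a GTPase of cell-autonomous immunity and a peptide transporter for antigen presentation, had log2 fold changes of 0.55 and 0.53 (edgeR adjusted p = 0.599 for each).

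**Figure D4:**
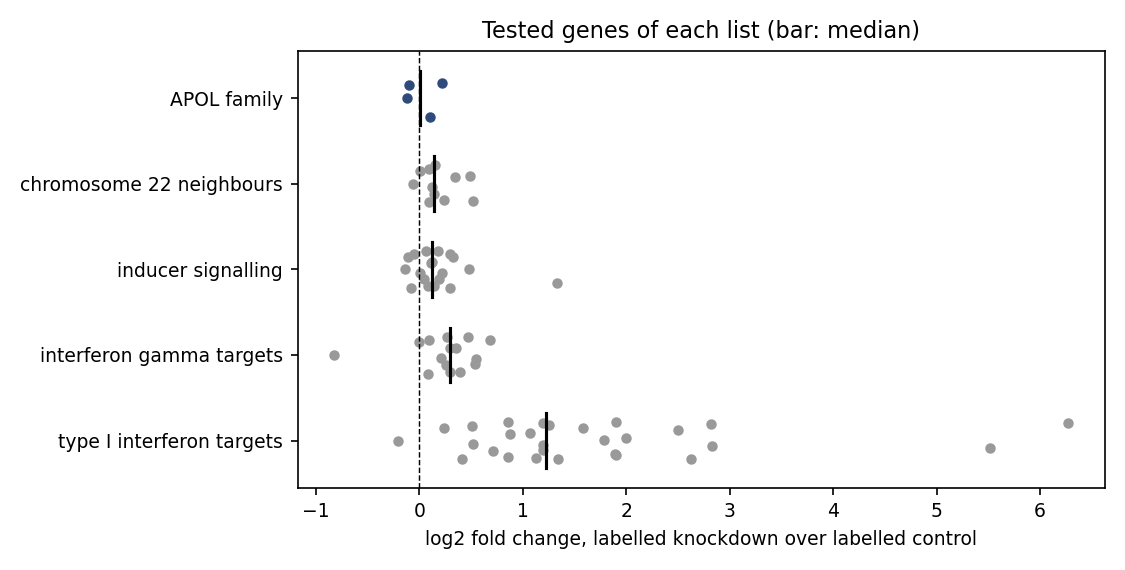
edgeR log2 fold changes (horizontal axis) of the tested genes in 5 lists, 1 point per gene, with the median of each list as a bar. The APOL genes lie between -0.12 and 0.22 around a median of 0.00068, and the type I interferon targets have a median of 1.22, with the points beyond 5 being OAS2 and MX2, whose fitted values rest on few reads in the libraries labelled control.

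Among the libraries labelled knockdown, replicate 3 had the highest summed level of type I targets, at 1188 CPM against 824 and 702 CPM in replicates 1 and 2. In that library APOL1, APOL2 and APOL3 were the lowest of the 3 libraries labelled knockdown, whereas APOL6 was the highest. Among the libraries labelled control, the type I sum was lowest in replicate 2, at 380 CPM against 450 and 449 CPM in replicates 1 and 3. There APOL1, APOL2 and APOL3 were lowest in replicate 2 as well, whereas APOL6 was highest. The order relative to the type I sums thus differed between the groups.

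Markers of other cell types were summed for each library. In bulk RNA, fewer cells of a type and less RNA per cell cannot be told apart. Of 7 endothelial markers 3 could be analysed, and their summed level spanned 0 to 0.214 CPM (control) and 0 to 0.394 CPM (knockdown). Of 9 leukocyte markers 5 could be analysed, with sums of 1.87 to 3.88 CPM and 2.84 to 4.98 CPM. For 5 of 7 podocyte markers the sums were 43.5 to 70.6 CPM and 55.5 to 67.2 CPM, most of it SYNPO. SYNPO had 52.8 ± 13.8 CPM labelled control and 56.9 ± 4.69 CPM labelled knockdown (SD, n = 3). In FPKM, which is scaled for length, SYNPO averaged 4.94 and 5.28, below APOL1 at 15.8 and 18.2. The 3 podocyte and 3 leukocyte markers that were tested overlapped between the groups, and no endothelial marker reached the test. Among untested markers, the podocyte gene NPHS1 had 0, 5 and 5 reads in the control replicates and 13, 9 and 6 in the knockdown replicates. The leukocyte gene LYZ had 1, 2 and 4 against 0, 0 and 1. Both were without overlap in CPM, but for LYZ only through depth. Its 1 read was 0.041 CPM in control replicate 1 and 0.0346 CPM in knockdown replicate 3. The share of untested genes without overlap was not determined, and both genes were named after their values were seen. All 6 libraries came from 1 epithelial cell line, so these values describe transcripts and do not show that such cells were present. The source of these reads was not tested.

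Genes with the pattern most like that of APOL1 over the 6 libraries were listed by Pearson correlation of log2 CPM among 13222 other genes with a mean of at least 1 CPM. The 5 nearest were ZNF316, FRMD5, PSMG4, PINK1-AS and GANAB, with r of 0.993, 0.99, 0.988, 0.985 and 0.984. ZNF316 ran from 28.3 CPM in control replicate 2 to 40.2 CPM in knockdown replicate 2, the same libraries that were lowest and highest for APOL1. PINK1-AS lies antisense to PINK1, and no source used here says whether counting used strand, so its reads are uncertain. With 6 points and this many genes such values are a description of these libraries. APOL2 stood at rank 551 (r = 0.805) and MYH9 at rank 496 (r = 0.816). The other members were far from APOL1 in this ranking, with r of 0.13 for APOL3 and -0.676 for APOL6.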

How the data were processed

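Polyadenylated RNA was sequenced in 6 HK-2 libraries, 3 per group by their titles. The authors deposited unnormalized read counts for each gene and FPKM values that the authors scaled for length and depth and rounded to 2 decimals. The submitters' processing notes name bcl2fastq, TopHat2, edgeR and GRCh38 without role or version, while no source used here gives the counting program, annotation release or use of strand. All 6 columns of both tables were used. The paper supplied describes another experiment and gave no design.

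Counts were fitted in edgeR 4.0.16 (R 4.3.3, quasi-likelihood F-test) with TMM scaling and the default filter (minimum count 10, total 15), without covariates, two-sided, with Benjamini-Hochberg adjustment over 15299 genes and a threshold of 0.05. The 95% intervals were taken from the same fit, whose code was tested on simulated data. Single values were compared by exact permutation tests (scipy 1.17.1), which cannot go below 0.1. Alternatives used DESeq2 1.42.0, limma 3.58.1, other scalings and filters, the replicate number as a block, and omission of each library.

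The members and the 11 gene lists (APOL family, chromosome 22 neighbours, inducer signalling, type I interferon targets, interferon gamma targets, APOL partners, other apolipoproteins, and tubule, podocyte, endothelial and leukocyte markers) were chosen with earlier results of these data known. Named were all members, ANXA2, the 5 genes most correlated with APOL1, per list the 2 non-overlapping genes with the largest absolute estimate, and RBFOX2, MYH9, IRF1 and TLR3. Some listed genes are not reported here. Other genes were named after their values were seen.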

Additional observations from a re-analysis of the deposited data

How the results depend on the processing

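Under 16 alternatives for each of the 4 tested members, 61 of 64 estimates kept their sign and none passed an adjusted p of 0.05. The lowest adjusted p of any member was 0.389 (APOL1 without control replicate 1, unadjusted 0.0391). The 3 changes of sign came from leaving out 1 library, which moved APOL3 between -0.254 and 0.0892 and APOL6 between -0.19 and 0.0307. For APOL4, which did not pass the low-count filter, such omissions gave log2 ratios from -1.78 to 1.00, and 1.00 came without control replicate 2, which held 12 of its 21 reads. With TMM scaling, an alternative chosen after seeing the data, its log2 ratio was -1.12. Without the filter edgeR gave -0.986 (adjusted p = 0.829) and DESeq2 -1.02. The plain difference of group means was -0.0271 on log2(FPKM + 1) and -0.175 on log2(FPKM + 0.1), where the pseudocount exceeds every APOL4 value. APOL4 was not fitted with the stricter filter, limma-voom, limma on FPKM or the block. The count of all genes past an adjusted p of 0.05 was 165 without the low-count filter, 31 with DESeq2 and 0 to 4 when 1 library was left out (4 without knockdown replicate 2), none of them an APOL gene. The causes were not tested. The APOL1 share difference was 2.53 to 3.19 percentage points over the omissions and 3.61 on CPM. The replicate numbers were not shown to pair the libraries: deviations of same-numbered libraries correlated at -0.0616, 0.118 and -0.203, and 1 of 6 libraries correlated best with its own number. With a replicate block the APOL1 estimate was 0.216 (adjusted p = 0.697), and no call changed.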

Other observations

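Genes of proteins known to act with APOL1 or APOL3 were also compared. Of 10 listed partners 7 were tested, with a median log2 fold change of 0.018. In edgeR 0 passed an adjusted p of 0.05 and 0 had an unadjusted p under 0.05, against 0% and 8.18% of all tested genes. Free of overlap were 0, against 15.6% of all tested genes. With 7 genes, these counts cannot be set apart from that background. PI4KB and NCS1, a Golgi lipid kinase and its calcium sensor, had log2 fold changes of 0.12 each, and MYH10, a second non-muscle myosin heavy chain, had -0.21 (edgeR adjusted p = 0.757, 0.73 and 0.707). These 3 genes were named after their values were seen.

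Among apolipoproteins outside the L family, 6 of 17 listed genes were tested and 0 passed an adjusted p of 0.05 in edgeR. Free of overlap were APOE and APOC1, both higher in the libraries labelled knockdown. They made up 33.3% of the tested list, against 15.6% of all tested genes in either direction and 7.94% higher. A count from 6 genes cannot be set apart from that background. APOE and APOC1 are neighbours on chromosome 19 and encode proteins of circulating lipoproteins. A joint change of their locus was not tested. APOE had 29.8, 26.2 and 30.0 CPM in control replicates 1, 2 and 3 and 47.8, 45.2 and 40.0 CPM in knockdown replicates 1, 2 and 3. edgeR put the log2 fold change at 0.63 (SE 0.118, unadjusted p = 0.000428, adjusted p = 0.419). APOC1 had 4.96 ± 1.03 CPM labelled control and 6.21 ± 0.239 CPM labelled knockdown (SD, n = 3; edgeR adjusted p = 0.684), with 6.003 CPM in control replicate 3 against 6.026 CPM in knockdown replicate 3.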
